A study of Mus musculus with 6 samples.

Results

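The microRNA family of miR-15, miR-16, miR-195 and miR-497 was followed through small RNA counts of 3 mouse oviducts and 3 primary tumors. Its members here are the 5p strands that the counts table lists as mmu-miR-15a-5p, mmu-miR-15b-5p, mmu-miR-16-5p, mmu-miR-195a-5p and mmu-miR-497a-5p (written below without the species prefix), chosen by name as the guides of this family, that is, the strands usually loaded into the silencing complex. They are 5 of the 1915 mouse names in the counts table and 5 of the 227 that passed the filter on low counts, so no member was lost. The oviducts had the genotype Dicer1+/D1693N, with 1 normal Dicer1 allele. The tumors, which the labels call ADT tumors with oviduct as the source tissue, had the genotype Dicer1ko/D1693N, with a knocked-out allele in its place. All 6 samples thus carried the D1693N allele. The labels name no treatment, and age, strain and the driver of the knockout are not stated in them. Small RNA counts do not show Dicer1 messenger RNA, and the genotypes rest on the labels. Tissue state, genotype and a tag within the column headers changed together and cannot be told apart.

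MicroRNAs of this family pair with messenger RNAs through their seed, bases 2 to 8 of the strand. Known targets include cyclins, cyclin-dependent kinases, Wee1 and the survival gene Bcl2, and the family is known as a brake on cell division. The human counterparts of miR-15a and miR-16-1 lie in a region that is often deleted in chronic lymphocytic leukemia, and miR-195a and miR-497a are known from the muscle and the heart, where they rise as cells leave the cell cycle. Each hairpin precursor can release a 5p and a 3p strand when Dicer cuts it. D1693N changes the RNase IIIb domain of Dicer, which makes the cut on the 5p side.

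The 5 guides are printed first because the family is defined by their seed, set in capitals (5′ to 3′, RefSeq mature sequences, GRCm38.p6).
miR-15a-5p: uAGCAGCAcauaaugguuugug
miR-15b-5p: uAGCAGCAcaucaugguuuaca
miR-16-5p: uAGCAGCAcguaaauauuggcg
miR-195a-5p: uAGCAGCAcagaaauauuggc
miR-497a-5p: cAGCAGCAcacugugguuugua
All 5 carry the seed AGCAGCA, and bases 2 to 9 are identical in all. They differ behind it and are 21 (miR-195a-5p) or 22 bases long. Over the first 21 bases, 10 positions are identical in all 5. The closest pair is miR-16-5p and miR-195a-5p, which differ at 2 of 21 positions (G10A and U11G, the base of miR-16-5p first, counted from 1 at the 5′ end). By comparison, miR-15a-5p and miR-15b-5p differ at 4 of 22 positions, miR-195a-5p and miR-497a-5p at 9 of 21, and miR-16-5p and miR-497a-5p at 11 of 22. The sources used here do not give how reads that match more than 1 of these names were assigned.

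The guides come from 6 hairpins in 3 clusters. Mir15a (chromosome 14, its mature strands from 61632038 to 61632096, minus strand, GRCm38.p6) lies in an intron of Dleu2, a long noncoding RNA gene, and Mir16-1 (chromosome 14, 61631880 to 61631972) overlaps an exon of the same gene. Mir15b (chromosome 3, 69009772 to 69009835, plus strand) and Mir16-2 (chromosome 3, 69009902 to 69009996) lie in introns of Smc4, which encodes a condensin subunit. Mir497 (chromosome 11, 70234717 to 70234800, plus strand) and Mir195a (chromosome 11, 70235042 to 70235135) lie beside each other, and apart from microRNA genes no gene of the annotation overlaps them. The clusters span 217, 225 and 419 bases. The first span is measured to the mature strands of Mir15a, since no hairpin sequence for it was found, and so falls short of its hairpin. The build behind the counts is not given in the sources used here. These positions belong to the reference alone.

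The precursors are shown because miR-16-5p cannot be assigned to a cluster from its counts while the 3p strands can. In each, the annotated mature strands are in capitals, the 5p strand first (RefSeq, GRCm38.p6).
Mir16-1: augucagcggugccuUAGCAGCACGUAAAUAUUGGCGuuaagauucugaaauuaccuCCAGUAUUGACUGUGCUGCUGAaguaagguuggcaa
Mir16-2: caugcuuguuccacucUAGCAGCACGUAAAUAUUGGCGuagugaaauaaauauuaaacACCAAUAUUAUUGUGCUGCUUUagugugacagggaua
Mir15b: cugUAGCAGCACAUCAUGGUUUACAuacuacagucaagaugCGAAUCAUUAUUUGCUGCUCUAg
Mir195a: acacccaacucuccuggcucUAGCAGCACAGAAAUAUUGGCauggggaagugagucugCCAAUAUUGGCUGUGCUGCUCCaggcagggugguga
The 5p strands of Mir16-1 and Mir16-2 are the same, so miR-16-5p counts hold both loci. Their 3p strands, miR-16-1-3p and miR-16-2-3p, differ. Mir15b and Mir195a each have a named strand on both arms, and both arms of each passed the filter on low counts.

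An oviduct library had from 297039 to 580390 mouse microRNA counts and a tumor library from 154002 to 272167. Levels are given as CPM, the count scaled by library size with trimmed-mean (TMM) factors. On this scale 3 counts, the floor used here, came to between 5.48 and 11.9 CPM for oviducts and to between 12.9 and 15.1 CPM for tumors. As a check of the labelled tissue, the summed level of 6 microRNAs known from multiciliated cells, a cell type of the oviduct lining, lay between 14867 and 21618 CPM in the oviducts against between 422 and 1209 CPM in the tumors, and 3 of the 5 tested were lower. Smooth muscle microRNAs summed to between 490712 and 558436 CPM in the oviducts and to 836231, 210780 and 94683 CPM in the tumors, so that the first tumor stood apart from the other tumors, and 2 of 5 were lower. Epithelial microRNAs summed to between 6941 and 11969 CPM in the oviducts against between 3857 and 7015 CPM in the tumors, with 1 of 5 lower. Of all 227 tested names, 25.6% were called lower and 26.9% higher, the shares beside which these and the later marker counts stand. Of these marker microRNAs and those of red cells, leukocytes and endothelium given below, none was at 0 in all libraries. In bulk samples, fewer cells of a type and less RNA per cell cannot be told apart.

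Between these oviducts and tumors the log2 fold changes of the family's members differed in size and sign. The 5p strand miR-497a-5p fell, while miR-195a-5p, miR-15a-5p, miR-15b-5p and miR-16-5p were not called. The edgeR quasi-likelihood test thus called 1 of 5 members, lower, where 52.4% of all 227 tested names were called, 25.6% lower and 26.9% higher. Of the 95 tested 5p names, 48.4% were called lower and 2.11% higher. Over the members, log2 fold changes (tumor over oviduct) had a median of -0.23 and ran from -2.29 to 0.73. The same median was 0.20 over all tested names and -1.04 over the tested 5p names.

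**Figure D1:**
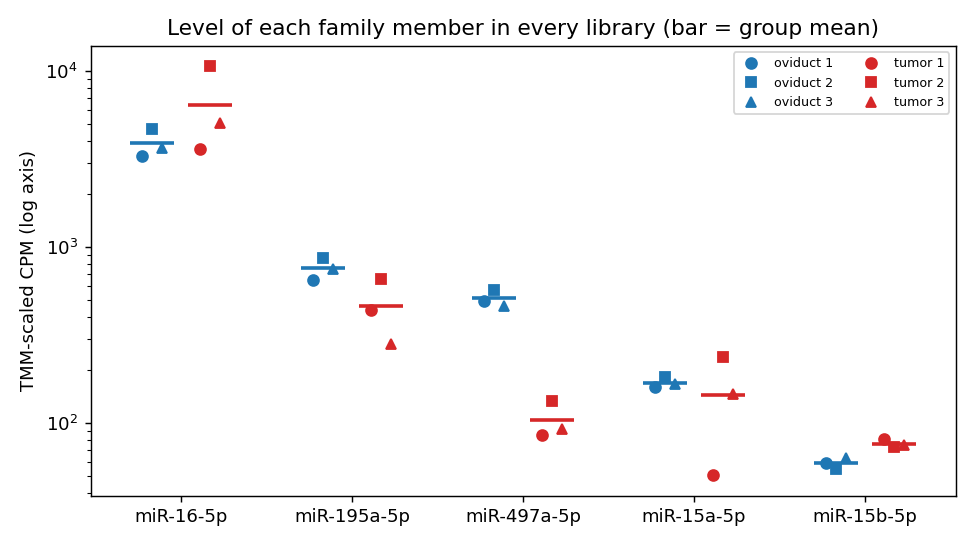
CPM (log axis) of each of the 5 guides in every library, blue for oviducts and red for tumors, with a symbol for each replicate and a bar at the group mean. The 3 tumors lie below the 3 oviducts for miR-497a-5p and above them for miR-15b-5p, and the groups overlap for miR-16-5p, miR-195a-5p and miR-15a-5p.

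In the oviducts the levels had a clear order. The guide miR-16-5p was highest at 3863 ± 715 CPM (SD, n = 3), ahead of miR-195a-5p at 752 ± 107, miR-497a-5p at 509 ± 56.2, miR-15a-5p at 169 ± 12.1 and miR-15b-5p at 59.1 ± 4.24 CPM. No neighbours in this order overlapped in the oviducts. In the tumors miR-16-5p stayed first and miR-195a-5p second, without overlap between them or with the others. The order below them was not resolved, since miR-15a-5p in the tumors ranged over the values of both miR-497a-5p and miR-15b-5p. Among all mouse names ranked by count, miR-16-5p held ranks 32, 22 and 28 in the oviducts against 26, 13 and 21 in the tumors. The rank of miR-497a-5p was 81, 80 and 81 in the oviducts against 171, 149 and 157 in the tumors.

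The cluster of Mir497 and Mir195a carried the member that changed. The guide miR-497a-5p stood at 493, 571 and 462 CPM in the oviducts (counts of 158, 313 and 117) and at 85.6, 133 and 92.3 CPM in the tumors (counts of 17, 31 and 21). Every tumor lay well below every oviduct. The mean fell from 509 ± 56.2 to 104 ± 25.7 CPM (SD, n = 3 each), 4.89-fold lower, with a log2 fold change of -2.29 (SE 0.37, edgeR adjusted p = 0.000708). No overlap in CPM between oviducts and tumors was seen for 2 of the 5 members, miR-497a-5p and miR-15b-5p, against 60.4% of all tested names in either direction and 30.4% with the tumors below.

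Its neighbour miR-195a-5p had 649, 862 and 747 CPM in the oviducts against 438, 657 and 281 CPM in the tumors. The tumors tended to the lower end, but the highest tumor reached just above the lowest oviduct. The means were 752 ± 107 and 459 ± 189 CPM, with a log2 fold change of -0.71 (SE 0.36, edgeR adjusted p = 0.120), which was not called. Its call depended on the libraries used. Without the second tumor, the highest of the 3, the log2 fold change was -1.03 and edgeR called it (adjusted p = 0.0386), so that 2 members were called. It was -1.16 without the first oviduct, -1.08 without the third oviduct and -0.99 without the first tumor, with edgeR adjusted p-values of 0.0768, 0.0856 and 0.0509. TMM factors from the 3p names alone (-1.53, edgeR adjusted p = 0.00800) and a filter at a mean of 10 CPM (-1.06, edgeR adjusted p = 0.0466) also made it a call. Without a low-count filter the log2 fold change was -1.01, with the replicate number as a block -0.78, and with DESeq2 or RLE factors -0.75. None of these was called. Still other settings gave smaller falls that were not called. The log2 fold change was -0.70 without the second oviduct and -0.58 without the third tumor (edgeR adjusted p = 0.233 and 0.163). It was -0.59 with upper-quartile factors and -0.32 with library totals (edgeR adjusted p = 0.194 and 0.649).

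Summed, the pair gave 1141, 1433 and 1210 CPM in the oviducts against 524, 790 and 374 CPM in the tumors, a mean of 1261 ± 153 against 562 ± 211, or 2.24-fold lower with no overlap. No test was run on this or any other sum over members. The pair did not move in step. There were 1.32, 1.51 and 1.62 counts of miR-195a-5p for each of miR-497a-5p in the oviducts against 5.12, 4.94 and 3.05 in the tumors. The ratio was higher in all 3 tumors, by 2.88-fold on the mean of log2 values (difference 1.53). The two-sided exact permutation p was 0.1, the smallest that 3 against 3 allows, and 0.143 after Benjamini-Hochberg adjustment over the 10 pairs of members. These ratios need no scaling between libraries, and they were added after the data had been seen.

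The smooth muscle list did not move as a whole with this pair. Its sum was at least 98.9% miR-143-3p in every library, and it was highest in the first tumor, where miR-497a-5p was lowest, and lowest in the third tumor, where the sum of the pair was lowest. Its called members fell, miR-145a-5p with a log2 fold change of -4.76 (edgeR adjusted p = 3.78e-05) and miR-145a-3p with one of -1.90 (edgeR adjusted p = 0.0133). The rest of the list, miR-143-3p (-0.45), miR-143-5p (-1.21) and miR-133a-3p (-1.23), was not called, and the groups overlapped for each. The part of smooth muscle in the change of miR-497a-5p was not tested. The microRNAs miR-126a-5p and miR-126a-3p, known from endothelium, summed to between 7146 and 9548 CPM in the oviducts against between 15198 and 20196 CPM in the tumors, and both were called higher. They moved opposite to miR-497a-5p, and their part in its change was not tested.

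The most abundant member, miR-16-5p, had 3283, 4662 and 3645 CPM in the oviducts against 3570, 10579 and 5025 CPM in the tumors. The second tumor stood far above the other libraries, and the first tumor lay among the oviducts. The means were 3863 ± 715 and 6391 ± 3699 CPM, with a log2 fold change of 0.73 (SE 0.41, edgeR adjusted p = 0.160), which was not called. The value was 0.21 without the second tumor, 0.29 without the first oviduct, 0.35 without the third oviduct and -0.09 with TMM factors from 3p names.

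Blood cells hold much miR-16, so their markers are given beside it. In the second tumor the 5 leukocyte microRNAs summed to 4997 CPM, against 816 and 743 CPM in the other tumors and between 1091 and 1765 CPM in the oviducts. The 4 red-cell microRNAs summed to between 4487 and 5656 CPM in the oviducts and to 11663, 1876 and 2532 CPM in the tumors, highest in the first tumor. Within that list miR-451a, which red cells make in large amounts, had 165, 137 and 158 CPM in the oviducts against 1088, 150.3 and 330 CPM in the tumors (log2 fold change 1.76, edgeR adjusted p = 0.0449), 1 of the 2 tested. The other tested one, miR-486a-5p, had a mean of 4831 CPM in the oviducts and 4792 CPM in the tumors. It was not called (log2 fold change -0.01, edgeR adjusted p = 0.995), and neither was any leukocyte microRNA. The leukocyte sum was thus highest where miR-16-5p was highest, and the red-cell sum was highest where miR-16-5p was lowest among the tumors. Their part in the miR-16-5p level was not tested.

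Both miR-15 guides were scarce. The guide miR-15a-5p had 159, 183 and 166 CPM in the oviducts against 50.4, 236 and 145 CPM in the tumors, from counts between 10 and 100. The oviducts lay close together and the tumors spread to both sides of them. The log2 fold change was -0.23 (SE 0.57, edgeR adjusted p = 0.744), not called, and its sign turned to 0.31 with library totals alone. Leaving out 1 library gave values from -0.71 (without the second tumor) to -0.12 (without the first tumor), with -0.58 without the first oviduct and -0.56 without the third oviduct.

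The guide miR-15b-5p had 59.2, 54.8 and 63.2 CPM in the oviducts against 80.6, 73.0 and 74.7 CPM in the tumors, from counts between 16 and 30. All 3 tumors lay above all 3 oviducts, as they did for 30% of tested names. The difference was small, with a log2 fold change of 0.37 (SE 0.44, edgeR adjusted p = 0.493), and it was not called. It turned to -0.48 with TMM factors from 3p names. It was 0.05, 0.09 and 0.06 without the first oviduct, the third oviduct and the first tumor, 0.22 without the second oviduct, and 0.04 with the filter at a mean of 10 CPM. At counts this low a change of this size was not detectable.

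The scaling moved all names together. Over all tested names the median log2 change was 0.20 with TMM, 0.19 with RLE, 0.32 with upper quartiles, 0.65 with library totals and -0.66 with TMM factors from 3p names, and the split of calls went from 61 higher and 58 lower with TMM to 72 higher and 26 lower with library totals, and to 42 higher and 92 lower with 3p factors. A scaling shifts all names nearly alike, so values relative to that median hardly depend on it by construction. Over these 5 scalings the relative log2 value lay between -2.51 and -2.47 for miR-497a-5p, between -0.97 and -0.88 for miR-195a-5p and between -0.48 and -0.34 for miR-15a-5p. It lay between 0.10 and 0.18 for miR-15b-5p and between 0.47 and 0.57 for miR-16-5p. The relative values did depend on single libraries, since that of miR-16-5p was 0.04 without the second tumor and that of miR-15b-5p -0.084 without the first tumor.

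**Figure D2:**
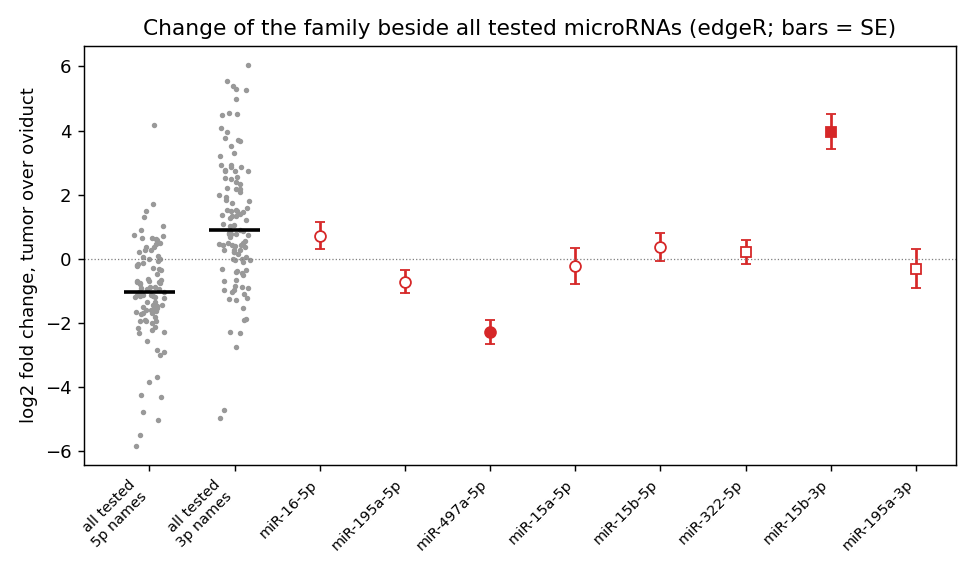
Log2 fold change (tumor over oviduct) with its standard error for the 5 guides (circles) and their tested relatives and 3p strands (squares), filled where edgeR called the change, beside all tested 5p and 3p names (grey points, black bars at their medians of -1.04 and 0.89). The filled points are miR-497a-5p at -2.29 and miR-15b-3p at 3.97, the latter a strand that passed the filter on low counts through the tumors alone.

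Pooled over its 5 members, the family had 4643, 6332 and 5083 CPM in the oviducts against 4225, 11678 and 5618 CPM in the tumors. The groups overlapped, with the second tumor high and the first tumor lowest of all. The means were 5353 ± 876 and 7174 ± 3962 CPM, a log2 ratio of 0.42. Without the second tumor this was -0.07, without the first oviduct 0.00088, without the third oviduct 0.05, and with TMM factors from 3p names -0.39. The pooled family made up between 0.396% and 0.598% of the mouse counts of an oviduct and 0.308%, 1.54% and 0.830% of those of the tumors.

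The pooled level was carried by miR-16-5p. Without it the remaining 4 guides summed to 1360, 1670.2 and 1439 CPM in the oviducts and to 655, 1099 and 593 CPM in the tumors. All tumors then lay below all oviducts, 1.90-fold lower on the means. The sum of miR-15a-5p and miR-15b-5p alone was 228 ± 9.55 and 220 ± 89.1 CPM, and those groups overlapped.

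The shares of 4 of the 5 members in the family's counts did not overlap between the groups. In CPM, 60.4% of all tested names did not overlap. The share of family counts held by miR-16-5p was 70.7%, 73.6% and 71.7% in the oviducts against 84.5%, 90.6% and 89.4% in the tumors. The Clopper-Pearson 95% interval was 68.3% to 73.0% for the first oviduct and 81.9% to 86.9% for the first tumor, which cover counting error only. All tumors lay above all oviducts, by 16.2 percentage points on the means (72.01% ± 1.48 and 88.2% ± 3.23, SD, n = 3 each, exact permutation p = 0.1, adjusted 0.125 over the 5 members).

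The other shares were lower in the tumors or overlapped. From oviduct to tumor the mean share of miR-195a-5p was 14.1% ± 0.555 and 7.001% ± 2.93, that of miR-497a-5p 9.58% ± 0.896 and 1.60% ± 0.445, and that of miR-15a-5p 3.19% ± 0.279 and 1.93% ± 0.699. For each of these 3 all tumors lay below all oviducts (exact permutation p = 0.1, the smallest possible, adjusted 0.125). The share of miR-15b-5p was 1.13% ± 0.229 and 1.29% ± 0.642, and its groups overlapped (exact permutation p = 0.7). Shares of 1 total are tied to each other. With miR-16-5p left out of the total, the share of miR-15a-5p was 6.49 and that of miR-195a-5p 7.63 percentage points higher in the tumors, both with overlapping groups (exact permutation p = 0.4 each).

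**Figure D3:**
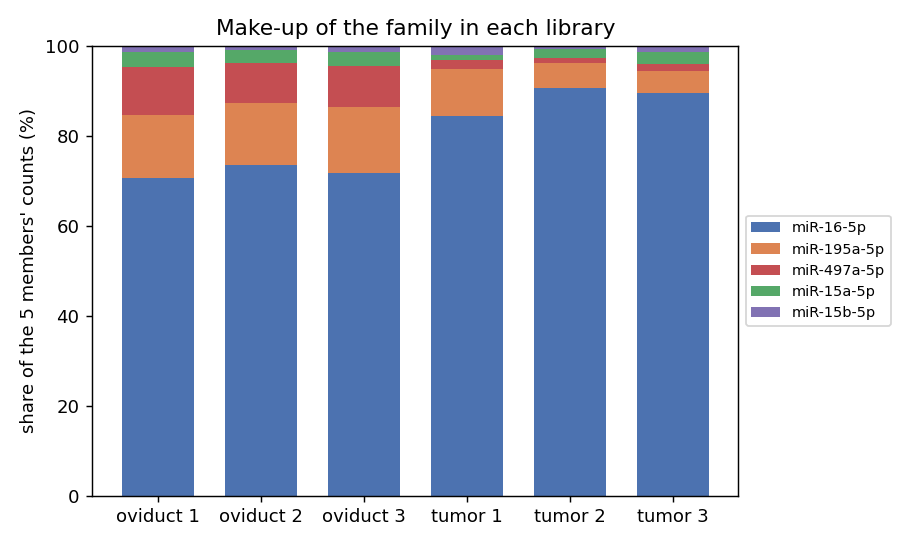
Stacked bars of the percent of the family's counts held by each of the 5 guides in every library. The share of miR-16-5p is between 70.7% and 73.6% in the oviducts against between 84.5% and 90.6% in the tumors, and that of miR-497a-5p is 1.60% on average in the tumors.

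Ratios between guides give the same makeup pair by pair. For each count of miR-497a-5p there were 6.66, 8.16 and 7.88 of miR-16-5p in the oviducts against 41.7, 79.5 and 54.4 in the tumors, 7.49-fold more on the mean of log2 values. For each count of miR-195a-5p, which differs from miR-16-5p at 2 positions, there were 5.06, 5.41 and 4.88 of miR-16-5p in the oviducts against 8.15, 16.1 and 17.9 in the tumors, 2.60-fold more. For each count of miR-15a-5p, which shares the Dleu2 locus with 1 copy of miR-16, there were 20.6, 25.5 and 22.0 of miR-16-5p in the oviducts against 70.9, 44.8 and 34.6 in the tumors, 2.12-fold more.

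Of the 10 pairs, 7 did not overlap between the groups, each with an exact permutation p of 0.1 (adjusted 0.143). The remaining 3 overlapped. They were miR-15a-5p to miR-15b-5p (exact permutation p = 0.3), miR-15a-5p to miR-195a-5p (p = 0.7 by the same exact test) and miR-15b-5p to miR-16-5p (p = 0.8 by the same exact test). All 4 pairs with miR-497a-5p were among the 7, and pairs that share a member are not independent. No share over pairs of other tested names was taken, while 60.4% of single tested names did not overlap in CPM.

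**Figure D4:**
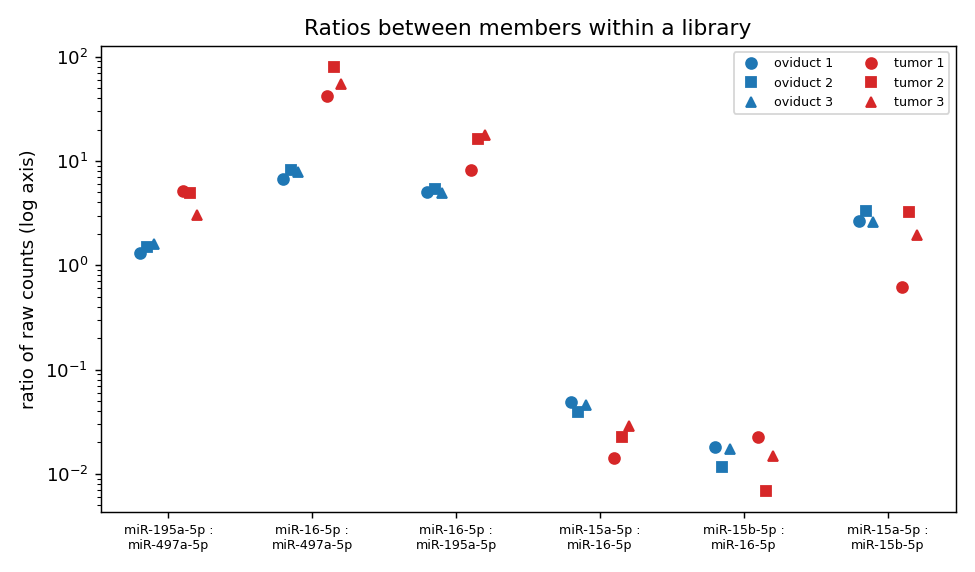
Ratio of raw counts between guides for 6 of the 10 pairs in every library (log axis), blue for oviducts and red for tumors. The ratio of miR-16-5p to miR-497a-5p lies between 6.66 and 8.16 in the oviducts against between 41.7 and 79.5 in the tumors.

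The 3p strands of the same hairpins are the passengers, the strands usually discarded. They are printed, with bases 2 to 8 in capitals, because their counts set the strand balance of the hairpins and their seeds differ from that of the guides (RefSeq, GRCm38.p6).
miR-15a-3p: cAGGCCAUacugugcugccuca
miR-15b-3p: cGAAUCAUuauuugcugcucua
miR-16-1-3p: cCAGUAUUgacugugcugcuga
miR-16-2-3p: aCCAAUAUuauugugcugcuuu
miR-195a-3p: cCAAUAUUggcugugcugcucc
Of 6 listed 3p strands, including miR-497a-3p, 2 passed the filter and 1 of these was called, higher in the tumors, against 41.8% of the 110 tested 3p names.

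The passenger miR-15b-3p had counts of 2, 2 and 1 in the oviducts against 11, 16 and 24 in the tumors, or 6.24, 3.65 and 3.95 CPM against 55.4, 68.7 and 105.5 CPM. It was near the floor in every oviduct and well above it in every tumor. It rose with a log2 fold change of 3.97 (SE 0.54, edgeR adjusted p = 0.000237), and it had passed the filter through the tumor libraries alone, so that the count of 1 in 2 supports nothing. Without a filter on low counts edgeR also called it (3.63, adjusted p = 0.000115). From pooled counts the ratio of tumor to oviduct was 17.4 (exact 95% interval 6.97 to 55.7, counting error only). The other tested passenger, miR-195a-3p, had 74.8, 32.9 and 63.2 CPM in the oviducts against 85.6, 34.3 and 17.6 CPM in the tumors. Its groups overlapped and it was not called (log2 fold change -0.31, SE 0.61, edgeR adjusted p = 0.679).

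Passengers below the filter are given as counts. The strand miR-15a-3p had 0, 1 and 0 counts in the oviducts against 9, 10 and 17 in the tumors, a pooled ratio of 61.3 with an exact interval from 10.3 to 2486. The strand miR-16-1-3p had 2, 3 and 1 counts in the oviducts against 3, 3 and 4 in the tumors (ratio 2.84, interval 0.934 to 9.50), and miR-16-2-3p had 1, 1 and 0 against 0, 6 and 5 (ratio 9.36, interval 2.04 to 86.9). The strand miR-497a-3p had 1 count, in an oviduct, and none in the tumors. So both strands that tell the miR-16 loci apart were present at a few counts, too few to rank the loci. Summed over all 6, the passengers had 93.5, 45.6 and 71.2 CPM in the oviducts against 201, 185 and 237 CPM in the tumors, with no overlap and 2.96-fold higher means. This sum mixes unlike strands. Pooled counts in oviducts and tumors were 58 and 29 for miR-195a-3p, 1 and 36 for miR-15a-3p, and 5 and 51 for miR-15b-3p. Over the 110 tested 3p names the median log2 fold change was 0.89, and 30% of all tested names had every tumor above every oviduct.

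The balance of the strands within a hairpin needs no scaling between libraries. It was measured as the log2 ratio of 5p to 3p counts with 0.5 added to each, and tested with limma over 142 hairpins. With the Mir16 copies pooled, all 5 family hairpins had a lower ratio in the tumors, as did 115 of the 142 tested hairpins. Of the 5, 3 were called, against 51.4% of all tested hairpins called, 47.2% lower and 4.23% higher. Of these 3, miR-497a was called through the added 0.5, as given below. Its raw counts did not show a lower ratio, since its only 3p count came from an oviduct. The number called was 2 with 0.1 in place of 0.5, in an edgeR interaction on the counts or without the second oviduct. The direction of miR-195a turned to 0.14 without the second oviduct and to 0.25 without the first tumor. The median log2 change was -2.45, beside -1.53 over all hairpins, but the median was the value of miR-497a itself. In the edgeR interaction the middle value of the 5 was that of miR-16, at -1.42.

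In miR-15a the 5p share of the hairpin's counts was 100%, 99.0% and 100% in the oviducts against 52.6%, 84.6% and 66% in the tumors. The groups were far apart. The log2 ratio fell by 5.23 (SE 0.69, limma adjusted p = 0.000128), and pooled 5p and 3p counts were 193 and 1 in the oviducts against 98 and 36 in the tumors. Since 1 strand had a single count in the oviducts, the pooled odds ratio is given too, 70.3 (exact 95% interval 11.5 to 2847, counting error only). Without the second tumor the log2 change was -5.85, and it was -4.72 without the first tumor. Its size depended on the added value, at -6.89 with 0.1 and -2.65 with 5 in place of 0.5, and limma called it with each.

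In miR-15b the 5p share was 90.5%, 93.8% and 94.1% in the oviducts against 59.3%, 51.5% and 41.5% in the tumors. The strands were thus close to even in the tumors. The log2 ratio fell by 3.30 (SE 0.59, limma adjusted p = 0.000913), from a mean of 3.34 to one of 0.04. With 5 added in place of 0.5 the change was -1.95, still called. The sum of both strands was 65.5, 58.4 and 67.2 CPM in the oviducts against 136, 142 and 180.2 CPM in the tumors, 2.40-fold higher on the means with no overlap (log2 ratio 1.26). That log2 ratio was 1.72 with library totals and 0.41 with TMM factors from 3p names, and it had no test. These sums of both strands were added after the data had been seen.

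In the abundant hairpins the 5p strand remained the main one. In miR-16 the 5p share was 99.8% ± 0.0908 in the oviducts against 99.5% ± 0.226 in the tumors, and all tumors lay below all oviducts. With a change of -1.35 in the log2 ratio (SE 0.61, limma adjusted p = 0.0908), it was not called. In miR-195a the share was 92.7% ± 3.37 and 90.9% ± 6.32, the groups overlapped, and the change was -0.32 (SE 0.71, limma adjusted p = 0.769).

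In miR-497a the limma call (log2 change -2.45, adjusted p = 0.0172) rested on the added 0.5. Its 5p and 3p counts were 588 and 1 in the oviducts against 69 and 0 in the tumors, so the 5p share was 99.8% ± 0.363 and 100% ± 0. With 0.1 added in place of 0.5 the limma change was -1.85 (adjusted p = 0.250), without the second oviduct -1.79 (adjusted p = 0.0861), and an edgeR interaction on the counts gave -0.43 (adjusted p = 0.812). A change of strand balance was therefore not detectable in this hairpin at this depth.

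**Figure D5:**
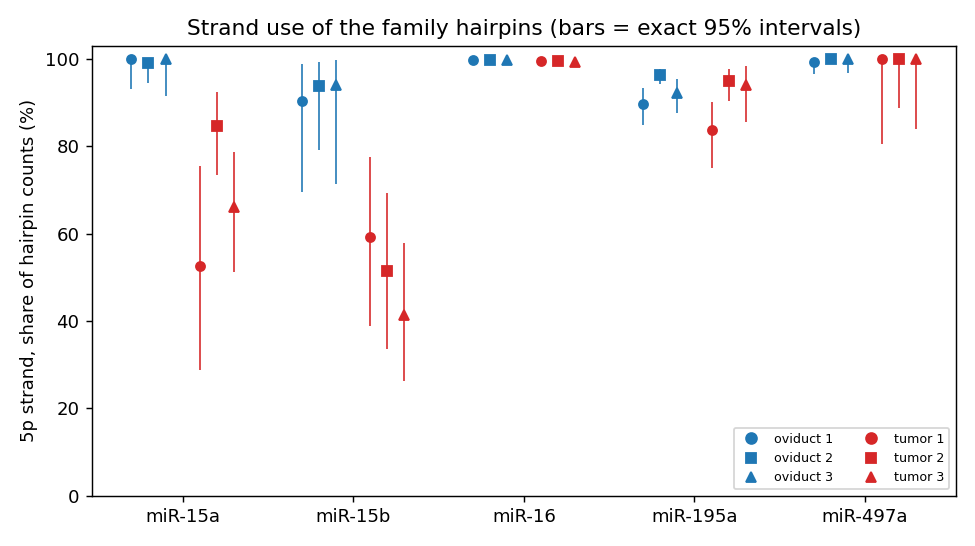
Percent of each hairpin's counts on its 5p strand in every library, with exact 95% intervals as bars and a symbol for each replicate. For miR-15a the tumors lie between 52.6% and 84.6% and for miR-15b between 41.5% and 59.3%, while the miR-16 and miR-497a points stay above 99% in both groups.

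Other names with the same seed were few. In the reference 10 mouse names carry AGCAGCA at bases 2 to 8, all of them in the counts table, 7 with a count and 6 tested. The only tested one outside the members is miR-322-5p, encoded on the X chromosome, shown here with its seed in capitals (RefSeq, GRCm38.p6).
miR-322-5p: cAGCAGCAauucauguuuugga
It had 546, 568 and 352 CPM in the oviducts against 337, 567 and 791 CPM in the tumors, with overlapping groups, and it was not called (log2 fold change 0.21, SE 0.38, edgeR adjusted p = 0.657). Its sign changed with the scaling and the filter. The members held between 87.7% and 95.4% of the counts of all names with this seed in any library. Pooled over all of them, the seed had 5841 ± 925 CPM in the oviducts against 7741 ± 4008 CPM in the tumors.

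The remaining listed names were rare. Among them miR-497b has another seed, ACCACAG, and no mature sequence of miR-1907 was found in the reference, so neither is shown to carry the family's seed. The microRNA miR-503-5p, a cluster neighbour of miR-322 whose seed AGCAGCG differs in its last base, had 0, 2 and 0 counts in the oviducts against 1, 3 and 3 in the tumors. The names miR-195b and miR-1907 had 1 count each, both in the first tumor, and miR-497b, miR-6342, miR-6353 and miR-6419 had 0 counts in all 6 libraries, under the floor of 3 counts.

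The microRNAs miR-103-3p and miR-107-3p, whose seed is shifted by 1 base, were tested as well. The former had 1260, 1291 and 2095 CPM in the oviducts against 2654, 1790.3 and 3486 CPM in the tumors. Its groups overlapped, and it was not called with all libraries (log2 fold change 0.77, SE 0.38, edgeR adjusted p = 0.106). Without the second tumor it was called (1.05, edgeR adjusted p = 0.0429), and with TMM factors from 3p names its sign turned to -0.08. The latter had 67.3 ± 31.3 CPM in the oviducts against 65.4 ± 46.6 CPM in the tumors (log2 fold change -0.03, SE 0.64, edgeR adjusted p = 0.980).

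Beside other families known for restraining cell division or for driving it, the members' values were as follows. The 9 tested 5p strands of let-7 and miR-98, a family known to restrain growth, had a median log2 fold change of -0.91 with 5 lower, and the 5 tested 5p strands of miR-30 one of -1.43 with 4 lower. The members' median was -0.23 with 1 lower. Over all 95 tested 5p names the median was -1.04, and 48.4% were called lower. The 2 tested 5p strands of the miR-17 family, known to drive division, had a median of 0.06 and neither was called. These differences between families were not tested.

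The names with the most similar profiles were sought by the root mean square difference of centred log2 CPM over the 6 libraries, a description with no test. The 5 nearest to the pooled family were miR-22-3p (0.236), miR-31-5p (0.252), miR-21a-5p (0.282), miR-192-5p (0.284) and miR-106b-5p (0.312). For miR-16-5p they were miR-31-5p (0.277) and miR-21a-5p (0.290). For miR-497a-5p they were miR-222-3p (0.181) and miR-125a-5p (0.233), whose own log2 fold changes were -2.28 and -2.01. For miR-195a-5p they were miR-186-5p (0.241) and miR-340-5p (0.275), for miR-15a-5p miR-425-5p (0.271) and miR-3971 (0.300), and for miR-15b-5p miR-151-3p (0.135) and miR-182-5p (0.1702). The profiles share their libraries and their scaling.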

How the data were processed

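Small RNA libraries from 3 oviducts and 3 tumors were analysed, where the series text speaks of 5 and 4. Per the labels' protocols, a miRNeasy kit gave total RNA and an Illumina TruSeq small RNA kit the libraries. Adapters were removed with cutadapt, per the submitters' processing notes. The sources used here do not give the aligner, microRNA reference, build or counter. The deposited values are raw counts per mature microRNA name, with no normalization by the authors. The 67 names of other species (10 counts) were left out.

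Separate animals are not stated in the labels, and p-values then reflect only how far these samples spread, which may be technical. No library repeated another of its group (chi-square per degree of freedom at least 24.8).

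Counts were tested with edgeR 4.0.16 in R 4.3.3 (filterByExpr minimum count 10, TMM, robust quasi-likelihood, two-sided, Benjamini-Hochberg over all 227 tested names, threshold 0.05). Oviduct TMM factors were 0.855, 0.946 and 0.853, and tumor factors 0.734, 1.33 and 1.49. The tested names held at least 99.3% of each library's mouse counts. Hairpin ratios were tested with limma 3.58.1 for hairpins with a mean of at least 20 counts, copies pooled. Single values were compared with two-sided exact permutation tests, whose smallest p for 3 against 3 is 0.1. Exact intervals and the floor describe counting error alone, because PCR copies of 1 molecule cannot be told apart without molecular identifiers.

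Named microRNAs were all members, the 3p strands of their hairpins, relatives listed by name or matched by seed, 2 names with a shifted seed, comparison families chosen by name and the nearest profiles. Members and lists were chosen with earlier results of these data known. Alternatives were DESeq2 1.42.0, other scalings, filters, pseudocounts and count minimums, an edgeR interaction, the replicate number as a block, and each library left out. The tests were also run on simulated counts, whose outcome is not given here and lends the results no support. Hairpin positions and sequences came from RefSeq tables on GRCm38.p6, and overlapping genes from GENCODE M21. Other steps used Python 3.11.15 and matplotlib 3.10.9.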

Additional observations from a re-analysis of the deposited data

How the results depend on the processing

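The call of miR-497a-5p as lower held under every scaling, filter, tool, block and left-out library tried, with log2 fold changes from -2.69 to -2.29 when each library was left out. The higher call of miR-15b-3p, a strand that passed the filter through the tumors alone, was also made under these settings, with no filter among them. These settings reuse the same counts, so they lend it no separate support. The lower 5p:3p ratios of miR-15a and miR-15b stayed called, except that miR-15b was not tested at a mean total of at least 50 counts. Their sizes moved with the pseudocount, from -6.89 (0.1) to -2.65 (5) for miR-15a and from -3.59 to -1.95 for miR-15b. Low counts limit the other members, above all miR-15b-5p and the 3p strands. Of 129 alternative values of the tested fold changes and ratios of the members and their hairpins, 118 kept their direction and their side of the threshold.

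TMM factors from 3p names gave log2 values of -0.48 for miR-15b-5p, -0.087 for miR-16-5p, -1.53 for miR-195a-5p, -0.65 for miR-322-5p and -0.082 for miR-103-3p, and 2 members called. With them the levels moved to -1.05 for miR-15a-5p, -0.48 for miR-15b-5p, -0.087 for miR-16-5p, -1.99 for miR-195a-5p with miR-497a-5p and -0.39 for the pooled family. Library totals gave 0.31 for miR-15a-5p and 0.43 for miR-107-3p, and levels of 0.77 for miR-15b-5p and -0.76 for miR-195a-5p with miR-497a-5p. Upper-quartile factors gave 0.11 for miR-107-3p and a level of 0.50 for miR-15b-5p. The filter at a mean of 10 CPM gave -1.06 for miR-195a-5p, -0.056 for miR-322-5p and 2 members called, and no filter gave -0.14 for miR-322-5p. The miR-497a ratio was -1.85 with a pseudocount of 0.1 and -0.43 in the edgeR interaction. Pooled counts gave a share difference of -0.0073 percentage points for miR-15b-5p, and leaving out miR-16-5p gave 6.49 for miR-15a-5p and 7.63 for miR-195a-5p. Total calls were 119, against 128 with DESeq2 and 174 without a filter. The causes of these shifts were not tested.

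Leaving out each library in turn gave 1 to 2 members called. Log2 fold changes ranged from -1.16 to -0.58 for miR-195a-5p, -0.27 to 0.27 for miR-322-5p, -0.80 to 0.45 for miR-107-3p and -1.38 to 0.0034 for miR-195a-3p. Levels ranged from 0.047 to 0.44 for miR-15b-5p, -1.58 to -1.06 for miR-195a-5p with miR-497a-5p and -0.07 to 0.46 for the pooled family. Ratio changes ranged from -0.68 to 0.25 for miR-195a and -3.07 to -1.79 for miR-497a, and the share difference of miR-15b-5p from -0.15 to 0.49 percentage points.

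With the replicate number as a block, edgeR called 108 names and limma 63 hairpins, with miR-497a-5p at -2.31 (edgeR adjusted p = 0.00169), and no call of a member, listed relative or family hairpin changed. Same-numbered samples had correlations of their deviations between -0.136 and 0.0897, so the numbers were not taken to pair the samples.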
